A study of Mus musculus with 6 samples.

Results

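The nuclear genes of respiratory complexes II to V were examined in embryonic mouse hearts, with and without the RNA-binding proteins RBPMS and RBPMS2 in cardiomyocytes. Members were all protein-coding genes of the table whose symbols are those of succinate dehydrogenase (Sdha to Sdhd) or cytochrome c1 (Cyc1) or begin with Uqcr, Cox4 to Cox8 or Atp5. This gave 48 of 45706 gene identifiers, of which 21958 were protein-coding. A mean of at least 10 over the 6 hearts was reached by 46 members, 4 in complex II, 9 in complex III, 16 in complex IV and 17 in complex V. The other 2 were testis isoforms, Cox7b2 with values near 1 and Cox8c, listed at 0 in every heart. Complex V was grouped by symbol. It therefore includes Atp5s, factor B, and Atp5sl, which is related by name only and is called Dmac2 in GENCODE M21. The deposited values are whole reads per gene scaled by the authors with one factor for each heart and rounded, and are here called normalized values. They can be compared between hearts, but between genes only after division by transcript length.

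Poly(A) RNA was sequenced from 6 embryonic hearts of strain C57BL6/J, 3 per group. All 6 carried loxP-flanked alleles of Rbpms and Rbpms2 on both chromosomes (RBPMS flox/flox RBPMS2 flox/flox), and the controls had no other allele named. The 3 double knockouts carried in addition Cre recombinase under the aMyHC promoter, which is active in cardiomyocytes, so that the deletion and the Cre transgene cannot be told apart in this comparison. The other cells of the heart keep both genes, and no embryonic day is given. Nothing in the labels says whether the hearts of a group came from different litters, and the p-values measure the spread between these hearts.

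The respiratory chain carries electrons from nutrients to oxygen along the inner mitochondrial membrane. Complex II takes them from succinate, complex III passes them from ubiquinol to cytochrome c, complex IV hands them to oxygen, and complex V, the ATP synthase, uses the proton gradient built by complexes I, III and IV to make ATP. The heart depends on this chain for most of its ATP, and after birth its muscle replaces several ubiquitous subunits of complex IV with muscle isoforms. Most subunits are encoded in the nucleus, and the catalytic centres of complex IV and the apoprotein of cytochrome b in complex III are encoded in mitochondrial DNA.

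The targeted genes and the tissue were checked first. Rbpms lay between 3868 and 7656 in controls and between 852 and 1134 in knockouts, and Rbpms2 between 1362 and 1998 against 879 and 1003. Rbpms fell by 2.53 on the log2 scale (SE 0.22, adjusted p = 0.000325, limma), and Rbpms2 fell by 0.84 (SE 0.12, adjusted p = 0.00207). Cardiac troponin T (Tnnt2) was between 128773 and 162556 in all 6 hearts. Of 7 skeletal muscle markers, Myod1 and Pax7 were listed at 0 in all 6, Myog, Myf5, Myh3 and Myh8 were at 59 or less, and Ckm, which cardiac muscle also expresses, made up nearly all of the sum of 26030 to 31880 in controls and 17682 to 20388 in knockouts. Of the 3 that were tested, Ckm fell by 0.61 (adjusted p = 0.0023, limma) and the other two did not pass. Total values were 17861435 to 18439201 per heart, from an estimated 12959798 (control replicate 3) to 25837261 (knockout replicate 1) reads. The levels of Xist and Y-linked genes gave 1 male among the controls and 2 among the knockouts.

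Across the 46 members, 13 fell in the knockouts and 0 rose (limma on log2(value + 1), Benjamini-Hochberg adjusted p under 0.05 over 15556 genes). Over all genes tested, 8.56% fell and 8.61% rose. At an unadjusted p under 0.05, 19 members were lower and 0 higher, against 15.5% and 16.1% of all genes tested. The fallen genes were 3 of 4 in complex II, 4 of 9 in complex III, 2 of 16 in complex IV and 4 of 17 in complex V. The median log2 change was -0.17 over the members and 0.00 over all genes tested, and by complex it was -0.36, -0.24, -0.08 and -0.19 in the order II to V. The estimates of 39 members were below 0. All 3 knockouts lay below all 3 controls in 22 members, against 17.9% of all genes tested, and all 3 lay above in 0 members, against 17.5%.

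Falls of the 13 genes ran from 0.24 (Cox5a and Atp5f1) to 0.44 (Cyc1) on the log2 scale. The lower end of this range depends on the threshold, which Uqcrq, at -0.24, did not pass. The count was 7 without control replicate 3, 6 without knockout replicate 2 and 8 without knockout replicate 3, and the numbers over all genes fell as well, to 789, 700 and 955 lower genes. Sdha, Sdhb, Cyc1, Uqcrfs1 and Cox5b passed under all 15 other settings tried, and the estimates of all 13 stayed below 0 in each of them. The median member in each heart, set against the control mean, was -0.05, -0.01 and 0.06 for controls 1 to 3 and -0.11, -0.15 and -0.21 for knockouts 1 to 3. The medians of the knockouts were therefore below those of all controls.

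**Figure D1:**
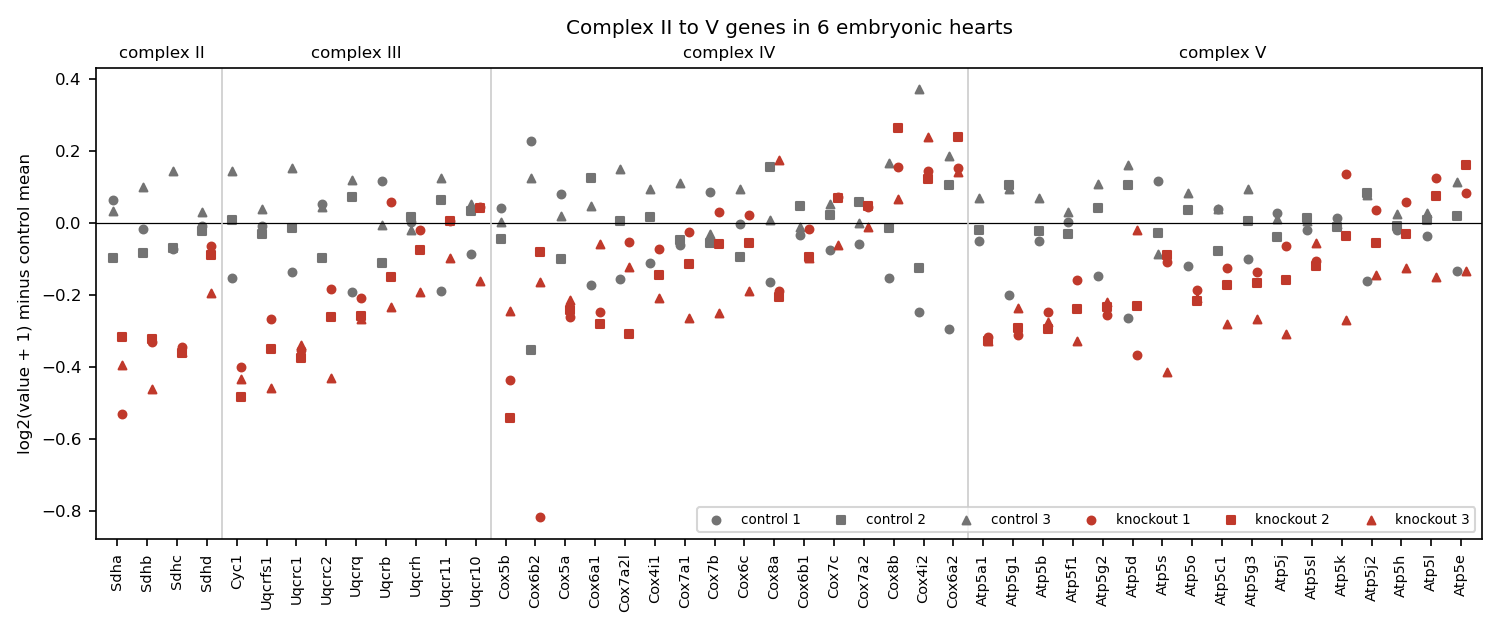
Level of each of the 46 genes in each heart, as log2(value + 1) minus the control mean (vertical axis), with genes grouped by complex along the horizontal axis; grey symbols are the 3 controls, red symbols the 3 knockouts. In 22 genes all red symbols lie below all grey ones, and in 0 genes above.

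In whole-heart RNA, fewer cells of a type and less RNA per cell cannot be told apart. The summed value of 12 cardiomyocyte markers was 888516 to 912862 in controls and 718295 to 835306 in knockouts, and 2 of the 12 fell (median log2 change -0.16), a median like that of the complex II to V genes. Beside the counts in this paragraph, 8.56% of all genes tested fell and 8.61% rose in limma. At an unadjusted p under 0.05, 15.5% were lower and 16.1% higher. Markers of several other cell types were higher in the same knockout hearts. The sum of 9 fibroblast markers was 92719 to 107955 in controls and 121245 to 150951 in knockouts, with 5 of 9 rising. For 10 endothelial markers it was 25338 to 27100 and 29611 to 34205, also with 5 rising, and for 9 macrophage markers 1633 to 1798 and 2316 to 3205, with 6 rising. The sum of 6 epicardial markers was 3630 to 3944 and 4093 to 4591, with 0 past the threshold in limma (2 at an unadjusted p under 0.05). The sum of 6 smooth muscle markers was lower, at 29808 to 36473 and 10221 to 13259, with 4 of 6 falling. Acta2 alone made up most of this sum, at 24225 to 29957 in controls and 6450 to 9040 in knockouts. Tagln (0.20) and Myocd (-0.25) did not pass. Erythroid markers were at 38044 to 66308, highest in control replicate 3, and at 30766 to 37947, with 0 of 9 past the threshold (5 lower and 1 higher at an unadjusted p under 0.05). Neural markers were near the floor of the test, with sums of 223 to 302 and 222 to 296. The part of these shifts in the changes of the respiratory genes was not tested.

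Complex II, succinate dehydrogenase, is the only complex here with no subunit from mitochondrial DNA, and 3 of its 4 genes fell. Sdha, the flavoprotein that oxidizes succinate (chromosome 13, 74322254 to 74350280, minus strand; mm10 as all positions here), had normalized values of 20775, 18568 and 20356 for controls 1 to 3, the order used throughout, and 13756, 15962 and 15122 for knockouts 1 to 3. The highest knockout lay below the lowest control. Sdha fell by 0.41 on the log2 scale (SE 0.08, adjusted p = 0.0065, limma). Its level fell by 24.9%, with an interval of the log2 change from -0.59 to -0.24 (95%, as for all intervals here).

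Sdhb, the iron-sulfur subunit that passes the electrons on (chromosome 4, 140961203 to 140979193, plus strand), had 8596, 8201 and 9305 in controls and 6913, 6949 and 6315 in knockouts. It fell by 0.37 (SE 0.07, adjusted p = 0.0068) with no overlap between groups. Sdhc, a membrane anchor that holds heme and the ubiquinone site (chromosome 1, 171127165 to 171150603, minus strand), was at 7293, 7306 and 8470 against 6039, 5969 and 5978. The 3 knockouts were close to each other, and the gene fell by 0.36 (SE 0.07, adjusted p = 0.0087). Its partner anchor Sdhd had values of 11334, 11236 and 11651 in controls and 10913, 10732 and 9969 in knockouts. These groups did not overlap either, but the difference of -0.12 (interval -0.26 to 0.03) did not pass (adjusted p = 0.24). The summed value of the 4 genes made up 0.261% ± 0.0123 (SD, n = 3) of the table in controls and 0.214% ± 0.00705 in knockouts.

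In complex III, the cytochrome bc1 complex, the larger subunits and the small ones gave different counts, a grouping made after the values had been seen. All 4 of Cyc1, Uqcrfs1, Uqcrc1 and Uqcrc2 fell, and 0 of the 5 small subunits passed in limma (1 at an unadjusted p under 0.05). The medians were -0.36 and -0.10. The difference between these sets was not tested.

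Cyc1 encodes cytochrome c1, the heme protein that reduces cytochrome c (chromosome 15, 76343523 to 76346260, plus strand). It was at 12517, 14014 and 15396 in controls and 10544, 9969 and 10308 in knockouts. This was the largest change among the 46 genes: Cyc1 fell by 0.44 on the log2 scale (SE 0.08, adjusted p = 0.0057), and its level fell by 26.2%. Uqcrfs1, the Rieske iron-sulfur protein (chromosome 13, 30540308 to 30545362, minus strand), was at 10912, 10744 and 11273 against 9119, 8611 and 7994. It fell by 0.36 (SE 0.07, adjusted p = 0.0065), and its lowest control stood well above its highest knockout.

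The core proteins Uqcrc1 and Uqcrc2 form the matrix side of the complex and are related to mitochondrial processing peptidases. Uqcrc1 was at 12302, 13397 and 15029 in controls and 10592, 10425 and 10694 in knockouts, a fall of 0.36 (SE 0.08, adjusted p = 0.0128). Uqcrc2 was at 13987, 12619 and 13904 against 11885, 11256 and 10014, a fall of 0.29 (SE 0.08, adjusted p = 0.0327). Without knockout replicate 2 the change of Uqcrc1 no longer passed, and that of Uqcrc2 was lost under 9 of the 15 other settings, among them leaving out control replicate 1 or 3 or knockout replicate 2 or 3.

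The 5 small subunits of complex III sit around this core. Uqcrq was at 3489, 4193 and 4332 in controls and 3452, 3332 and 3314 in knockouts, with groups that lay next to each other without overlap, and its difference of -0.24 did not pass (adjusted p = 0.07). The hinge protein gene Uqcrh (-0.10), Uqcrb (-0.11), Uqcr11 (-0.03) and Uqcr10 (-0.03) had groups that overlapped, and the intervals of all 4 spanned 0. For Uqcr10 the interval was -0.19 to 0.14, which leaves out a fall of the size seen in Cyc1. As a whole, complex III genes took up 0.452% ± 0.0168 of the table in controls and 0.387% ± 0.0188 in knockouts.

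**Figure D2:**
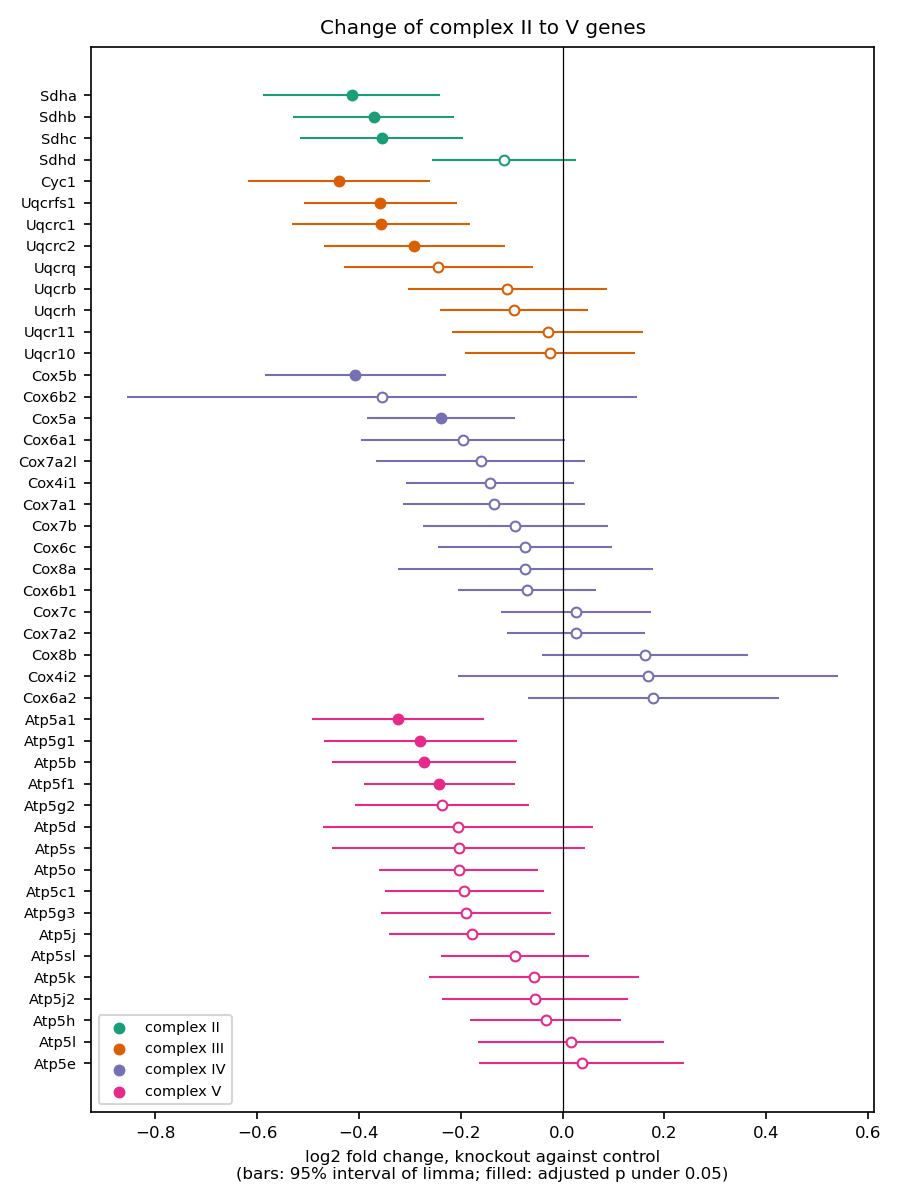
Log2 fold change of each of the 46 genes, knockout against control (horizontal axis), with the 95% interval of limma as bars and one gene per line, coloured by complex; filled circles passed an adjusted p under 0.05. The 13 filled circles all lie left of 0, between -0.44 and -0.24.

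In complex IV, cytochrome c oxidase, 2 of 16 genes fell, against 8.56% of all genes tested. At an unadjusted p under 0.05, 2 of 16 were lower, against 15.5%. The 2 that fell, Cox5b and Cox5a, encode nuclear subunits with no muscle form among the members. Cox6c, Cox7b and Cox7c have no muscle form among them either, and did not pass. Cox5b, a subunit that binds zinc (chromosome 1, 36691449 to 36693681, plus strand) had 9322, 8787 and 9063 in controls and 6692, 6224 and 7641 in knockouts. It fell by 0.41 (SE 0.08, adjusted p = 0.0076), and its level fell by 24.6%. Knockout replicate 3 was the nearest to the controls. Cox5a (chromosome 9, 57521274 to 57532426, plus strand) had 5347, 4716 and 5124 against 4222, 4272 and 4362, a fall of 0.24 (SE 0.07, adjusted p = 0.0325) that was lost under 10 of the 15 other settings, among them leaving out any heart but control replicate 2. The other 14 genes had estimates from -0.35 (Cox6b2) to 0.18 (Cox6a2). In all 14 the groups overlapped.

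Complex IV has subunits with a ubiquitous form and a form of heart and skeletal muscle. The muscle forms Cox6a2, Cox7a1 and Cox8b were compared with Cox6a1, Cox7a2 and Cox8a within each heart, where scaling between hearts drops out. Cox6a2 was at 5244, 6921 and 7318 in controls and 7151, 7588 and 7095 in knockouts, while Cox6a1 was at 5025, 6176 and 5851 against 4766, 4659 and 5436. Neither gene passed the test on its own (0.18, adjusted p = 0.30, and -0.20, adjusted p = 0.17, limma). Without control replicate 1, where Cox6a2 was lowest, Cox6a2 was at 0.03 and Cox6a1 at -0.28 (adjusted p = 0.046), and over all hearts left out in turn Cox6a2 ranged up to 0.27 (without control replicate 3). Per kilobase of transcript, Cox6a2 made up 46.7%, 48.5% and 51.2% of the pair in controls and 55.8%, 57.8% and 52.3% in knockouts. The muscle share was thus higher in each knockout than in each control, at 55.3% ± 2.77 against 48.8% ± 2.28 (SD, n = 3). The log2 ratio of the pair was higher by 0.37 (exact two-sided permutation test, p = 0.1, which is the smallest that 3 hearts against 3 allow; 0.3 adjusted over 3 pairs).

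The subunit 7A pair lay the other way. Cox7a1, the muscle form, was at 1978, 1997 and 2230 in controls and 2029, 1909 and 1721 in knockouts. Cox7a2, the ubiquitous form, was at 6570, 7126 and 6847 against 7058, 7070 and 6793. The muscle share per kilobase was 33.6% ± 1.68 in controls and 31.2% ± 1.35 in knockouts, with overlapping groups and a log2 ratio difference of -0.16 (exact permutation p = 0.2, adjusted 0.3).

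For subunit 8, the muscle form Cox8b was at 1314, 1448 and 1641 in controls and 1629, 1755 and 1530 in knockouts. The ubiquitous Cox8a was at 7107, 8863 and 8010 against 6980, 6908 and 8993. The muscle share was 21.9% ± 1.93 and 25.0% ± 3.84, and knockout replicate 3, at 20.6%, lay within the control range. The log2 ratio differed by 0.23 (exact permutation p = 0.3, adjusted 0.3). The ubiquitous forms therefore made up most of the subunit 7A and 8 pairs in every heart, and the 6A pair was close to even. A change in the muscle share across the 3 pairs was not detected, and the exact test could not reach 0.05 with these numbers of hearts.

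**Figure D3:**
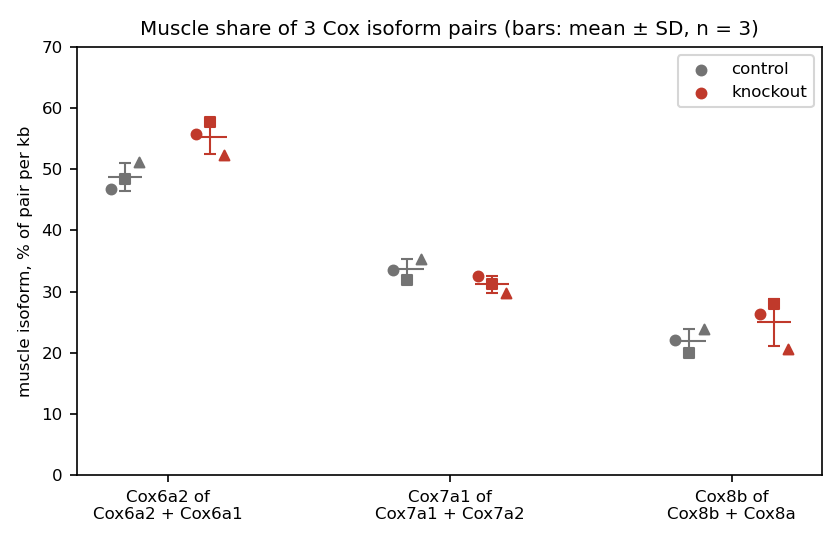
Share of the muscle isoform in 3 pairs of complex IV subunits, as a percentage of the pair's value per kilobase (vertical axis); points are hearts, and bars are the mean and SD of 3 controls (grey) or 3 knockouts (red). The knockouts lie above the controls only in the Cox6a2 pair, at 55.3% against 48.8%, and the groups overlap in the other 2.

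Of 2 further pairs, both second forms were near the floor. Cox4i2, the form linked to lung and to low oxygen, was at 102, 111 and 157 in controls and 134, 132 and 143 in knockouts, beside 15222, 16644 and 17549 against 15628, 14878 and 14221 for Cox4i1. It made up under 1.1% of the pair per kilobase in every heart (0.756% ± 0.132 and 0.931% ± 0.0788). Cox6b2, the testis form, was at 129, 86 and 120 in controls and 62, 104 and 98 in knockouts, beside 9782, 10344 and 9934 against 9900, 9379 and 9364 for Cox6b1. None of these 4 genes passed (limma adjusted p from 0.22 to 0.54). Their intervals ran from -0.86 to 0.15 for Cox6b2 and from -0.21 to 0.54 for Cox4i2, and were narrower for the abundant partners.

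Promoters of these genes are shown for the pairs and for the 2 complex IV genes that fell, because the members moved to different degrees within 1 complex. Sequences and starts are from RefSeq (GRCm38.p6), which gave a window of 250 bases before to 50 bases after the start for 36 of the 46 members. Only the part upstream and outside every annotated exon is printed, 5′ to 3′ on the strand of the gene, and Cox6a2 was not among the 36. Capitals mark 7 motifs that were searched on both strands by their letters: NRF1 (GCGC, any 2 bases, GCGC), GABP (CCGGAAG), ERR (AAGGTCA), YY1 (AAGATGG), SP1 (GGGCGG), the TATA box (TATAAA) and the E-box (CANCTG). No overlap between motifs occurred.
Cox6a1 (chr5:115348982-115349129, minus strand): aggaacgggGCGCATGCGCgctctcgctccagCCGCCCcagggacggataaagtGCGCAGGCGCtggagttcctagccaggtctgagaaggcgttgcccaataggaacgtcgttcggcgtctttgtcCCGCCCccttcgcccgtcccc
Cox7a2 (chr9:79759879-79760103, minus strand): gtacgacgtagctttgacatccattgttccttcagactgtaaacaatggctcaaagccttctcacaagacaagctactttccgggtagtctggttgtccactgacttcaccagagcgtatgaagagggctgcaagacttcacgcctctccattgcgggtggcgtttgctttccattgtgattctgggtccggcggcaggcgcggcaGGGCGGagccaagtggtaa
Cox7a1 (chr7:30183921-30184143, plus strand): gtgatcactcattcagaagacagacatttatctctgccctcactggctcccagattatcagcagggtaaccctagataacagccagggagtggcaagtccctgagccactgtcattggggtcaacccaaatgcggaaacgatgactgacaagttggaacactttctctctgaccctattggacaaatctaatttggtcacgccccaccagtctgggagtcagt
Cox8a (chr19:7217617-7217866, minus strand): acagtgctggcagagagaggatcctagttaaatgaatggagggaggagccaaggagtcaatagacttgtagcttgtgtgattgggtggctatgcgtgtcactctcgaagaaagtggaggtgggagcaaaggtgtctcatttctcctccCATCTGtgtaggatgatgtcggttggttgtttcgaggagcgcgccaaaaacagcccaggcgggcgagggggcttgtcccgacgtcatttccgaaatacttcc
Cox8b (chr7:140900447-140900696, minus strand): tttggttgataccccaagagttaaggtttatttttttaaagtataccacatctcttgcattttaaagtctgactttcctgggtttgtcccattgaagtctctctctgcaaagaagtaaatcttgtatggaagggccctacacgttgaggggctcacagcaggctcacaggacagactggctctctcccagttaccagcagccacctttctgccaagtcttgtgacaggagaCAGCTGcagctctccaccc
Cox5a (chr9:57520982-57521231, plus strand): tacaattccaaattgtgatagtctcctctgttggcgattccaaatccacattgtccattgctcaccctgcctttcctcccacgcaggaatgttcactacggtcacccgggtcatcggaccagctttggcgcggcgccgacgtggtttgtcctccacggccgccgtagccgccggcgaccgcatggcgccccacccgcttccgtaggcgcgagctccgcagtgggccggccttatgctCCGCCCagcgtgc
Cox5b (chr1:36691237-36691448, plus strand): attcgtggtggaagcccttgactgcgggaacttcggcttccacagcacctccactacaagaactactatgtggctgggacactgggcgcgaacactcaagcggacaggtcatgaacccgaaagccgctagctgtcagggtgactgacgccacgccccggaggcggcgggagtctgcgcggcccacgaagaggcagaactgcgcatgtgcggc
In these stretches Cox6a1 holds the NRF1 and SP1 letters, Cox7a2 and Cox5a the SP1 letters, and both Cox8a and Cox8b the E-box letters. Cox7a1 and Cox5b hold none of the 7 within the printed bases.

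Over the full windows, the letters of NRF1, a known regulator of nuclear respiratory genes, were found in 10 of 36 members (27.8%, against 7.0% of 27025 genes). These 27025 are all genes with a window. Unlike the members, they were not chosen by type or by level in the heart. The differences in motif shares were not tested. Those of GABP, also called NRF2, were found in 12 (33.3%, against 9.93%). ERR letters were in 5 (13.9%, against 5.38%) and YY1 letters in 5 (13.9%, against 7.28%). SP1 letters were as common as elsewhere, in 13 members (36.1%, against 38.2%). The TATA box letters were in 2 members, Cox8b and Atp5l (5.56%, against 15.7%), and E-box letters in 12 (33.3%, against 54.6%). Of the 13 genes that fell, 9 had a window. Among these 9, 4 held the SP1 letters, 3 the E-box letters, 2 the NRF1 letters (Sdha and Uqcrc1), 1 the GABP letters (Sdhb), 1 the YY1 letters (Atp5f1) and 0 the ERR or TATA box letters.

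Complex V, the ATP synthase, had the 3 members with the highest levels per kilobase, Atp5b, Atp5g3 and Atp5a1. Atp5b, the catalytic F1 beta subunit (chromosome 10, 128083273 to 128090391, plus strand), came first in controls, with 53275 ± 2327 per kilobase (SD, n = 3), and took up 0.559% of the table. Together complex V genes made up 1.65% ± 0.0545 of the table in controls and 1.43% ± 0.0316 in knockouts. The 46 genes together went from 2.91% ± 0.0905 to 2.55% ± 0.0588, and all 3 knockouts lay below all 3 controls. The share of complex IV was close to level, at 0.549% ± 0.0154 and 0.524% ± 0.0093, with overlapping groups.

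**Figure D4:**
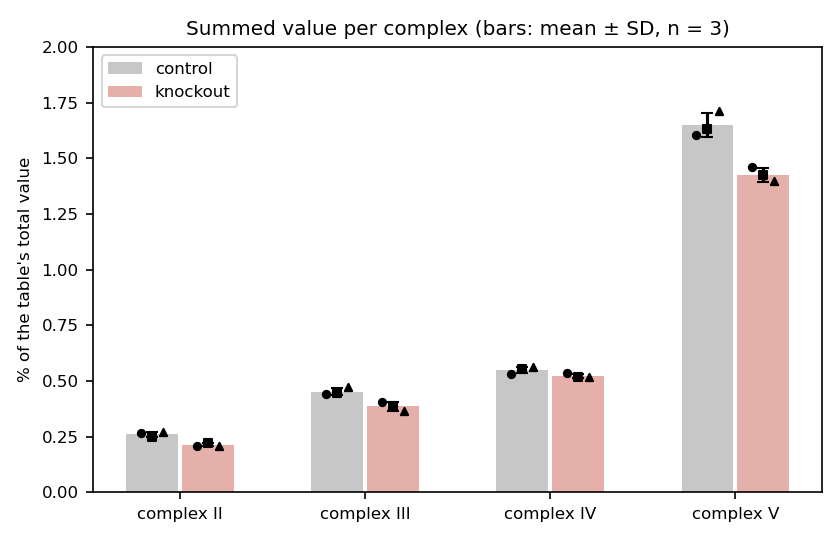
Summed value of the genes of each complex, as a percentage of all values in the table (vertical axis), for complexes II to V; bars and error bars are the mean and SD of 3 controls or 3 knockouts, points are hearts. Complex V took up 1.65% in controls and 1.43% in knockouts, and only complex IV shows overlapping groups.

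The F1 head, which makes ATP, had 2 of 5 genes falling. Atp5a1, the F1 alpha subunit, was at 70783, 72351 and 76938 in controls and 58893, 58380 and 58451 in knockouts, a fall of 0.32 (SE 0.08, adjusted p = 0.0171). Atp5b was at 98616, 100502 and 107107 against 85896, 83227 and 84349, a fall of 0.27 (SE 0.08, adjusted p = 0.0444). The groups were far apart relative to their spread in both. With quantile normalization, which pulls the few most abundant genes to a common value in every heart, the changes were -0.12 and -0.16 and neither passed. Atp5a1 was also lost without control replicate 3 or knockout replicate 2, and Atp5b was lost whichever heart was left out. The F1 gamma stalk Atp5c1 was at 17763, 16369 and 17771 against 15865, 15337 and 14225, with no overlap (-0.19, adjusted p = 0.09). Atp5d (-0.21) and Atp5e (0.04) overlapped between groups.

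The Fo part sits in the membrane and conducts protons, and 2 of its 10 genes fell. Atp5f1, subunit b of the outer stalk, was at 14911, 14567 and 15189 in controls and 13334, 12621 and 11852 in knockouts. It fell by 0.24 (SE 0.07, adjusted p = 0.0337), a change that was lost without any heart but knockout replicate 1. Subunit c, which forms the rotating ring, is encoded by Atp5g1, Atp5g2 and Atp5g3, whose mature proteins are the same. Atp5g1 was at 7179, 8874 and 8803 against 6650, 6739 and 7002 and fell by 0.28 (SE 0.09, adjusted p = 0.0491), just under the threshold and lost without any heart but control replicate 1. Atp5g2 was at 1570, 1791 and 1874 against 1457, 1480 and 1493 (-0.24, adjusted p = 0.06), and Atp5g3 at 21474, 23084 and 24591 against 20957, 20516 and 19140 (-0.19, adjusted p = 0.11). All 3 genes had knockouts below every control, a separation found in 17.9% of all genes tested. Per kilobase, Atp5g3 was the most abundant of them in each heart.

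Among the other Fo genes, Atp5o, the oligomycin-sensitivity subunit that joins the stalk to F1, was at 13376, 14905 and 15406 in controls and 12773, 12504 and 12581 in knockouts (-0.20, adjusted p = 0.07). Atp5j, coupling factor 6, gave -0.18 (adjusted p = 0.13) with no overlap. Subunit d, Atp5h (-0.03), and the small membrane subunits Atp5k (-0.06), Atp5j2 (-0.05) and Atp5l (0.02) had groups that overlapped. Their intervals were within -0.26 and 0.20. Atp5s (-0.20) and Atp5sl (-0.09), grouped here by symbol and in neither F1 nor Fo, did not pass (adjusted p = 0.24 and 0.36, limma). Both had all knockouts below all controls, as did 17.9% of all genes tested. The 4 calls in complex V ran from 0 to 5 over all hearts left out in turn (limma). There was 1 without control replicate 2 or knockout replicate 3, 2 without knockout replicate 1, and 0 without control replicate 3 or knockout replicate 2. Lower genes over all genes tested went from 1331 to between 700 and 1225 in these fits.

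Members were also split by transcript length, a split chosen after the values had been seen, and the difference between the sets was not tested. Of the 16 members with a reference transcript (GENCODE M21) of at least 1000 bases, 10 fell (median -0.28). Of the 30 shorter ones, 3 fell (median -0.08). The long set holds all of complex II and the 4 large complex III subunits, and the short set all 5 small complex III subunits, so that within complex III length and role cannot be told apart. Cox7b, a small complex IV subunit with a transcript of 1001 bases, is in the long set and gave -0.09. Among other protein-coding genes with a mean of at least 1000, 13.5% of 3883 long genes and 7.48% of 254 short genes fell, with medians of -0.02 and 0.02.

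**Figure D5:**
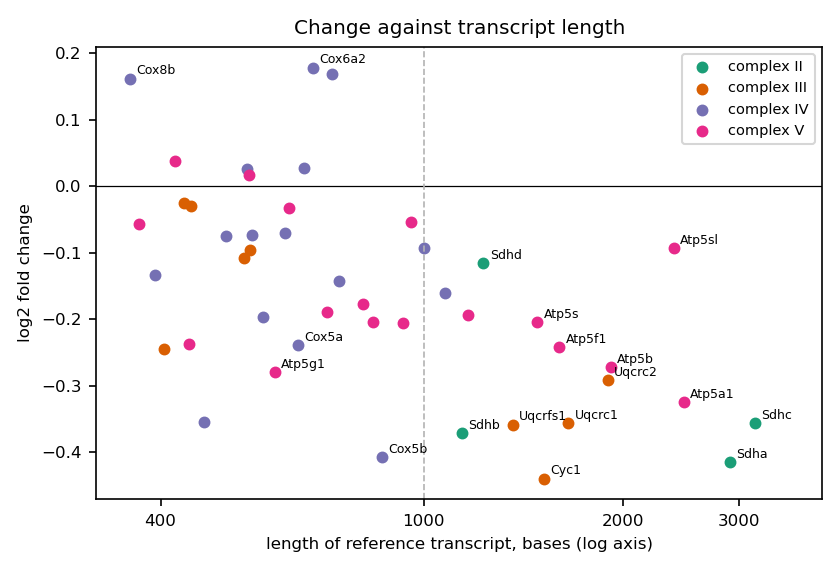
Log2 fold change, knockout against control (vertical axis), of the 46 genes against the length of the reference transcript in bases (horizontal log axis), coloured by complex, with a dashed line at 1000 bases. Of the 16 genes to the right of the line 10 fell, and of the 30 to its left 3 fell.

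Some members share sequence with other genes, and how the authors' counting assigned such reads is not stated. Pseudogenes of any type that matched a member's transcript at 95% identity or more over at least 150 bases were found for 14 of the 46. Their summed values exceeded 5% of the member's value for 7, the highest being Atp5l, whose copies sum to 86.5% of its own value, and Cox7a2l, at 30.0%. Adding the copies to the member gave -0.06 in place of 0.02 for Atp5l and -0.19 in place of -0.16 for Cox7a2l, a factor that helps join complexes III and IV into supercomplexes. For Atp5f1, with copies at 11.1%, the change was -0.24 both ways. Exons of 12 of the 46 members overlap genes on the other strand, among them 4 that fell (Uqcrc2, Cox5a, Atp5a1 and Atp5f1) and Cox6a2 and Cox4i1 of the isoform pairs, and whether counting used strand is not stated.

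The subunits are put together by assembly factors that are not part of the finished complexes. The list used here also holds genes of related steps, such as mitochondrial mRNA stability and inhibition of complex V. Of its 36 genes tested, 7 fell and 1 rose in limma, against 8.56% and 8.61% of all genes tested. The median log2 change was -0.07. Cmc2, a factor of complex IV assembly, was at 771, 802 and 804 in controls and 560, 551 and 550 in knockouts and fell by 0.52 (SE 0.07, adjusted p = 0.0015). Lrpprc, which stabilizes mitochondrial mRNAs including those of complex IV, was at 4008, 3617 and 3605 against 2971, 2867 and 2744 and fell by 0.39 (SE 0.07, adjusted p = 0.0045). Cox10, the farnesyltransferase that makes heme for complex IV, was at 1091, 1141 and 1380 against 848, 874 and 929 and fell by 0.44 (SE 0.09, adjusted p = 0.0114). In each of these 3 genes every knockout was below every control, against 17.9% of all genes tested. The count of fallen genes on the list was 4 without control replicate 2 and 3 without control replicate 3 or knockout replicate 2. It ran from 3 to 8 over all hearts left out in turn.

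Atpif1 was the gene of the assembly list that rose. It encodes the inhibitor that stops complex V from hydrolysing ATP when the proton gradient fails. It was at 2894, 3243 and 2910 in controls and 4009, 3954 and 4068 in knockouts, a rise of 0.41 (SE 0.07, adjusted p = 0.0028, limma), and the groups were far apart. It is no subunit by the name rule, and its direction is opposite to that of the 4 complex V genes that fell, in the same hearts.

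Among the carriers and subunits outside the name pattern, Cycs, which encodes the cytochrome c that links complexes III and IV, was at 7870, 6965 and 7162 in controls and 6881, 5670 and 5301 in knockouts. Its difference of -0.31 just missed the threshold (adjusted p = 0.053, limma). Ndufa4, now placed in complex IV, gave -0.11 and Usmg5, a small complex V subunit, -0.02, and neither passed. Of 36 complex I genes, 10 fell and 0 rose in limma (18 and 0 at an unadjusted p under 0.05, where 15.5% of all genes were lower and 16.1% higher), with a median of -0.15, beside -0.17 for complexes II to V. The 10 were 5 without control replicate 2 or knockout replicate 3, 3 without control replicate 3 and 2 without knockout replicate 2. Over all hearts left out in turn they were 2 to 15. The mitochondrial genes mt-Cytb, mt-Co1, mt-Co2, mt-Co3, mt-Atp6 and mt-Atp8, partners of the genes described here, are listed at 0 in all 6 hearts and gave no value to compare.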

How the data were processed

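Poly(A) RNA of 6 hearts was measured, and groups and replicate numbers came from the sample titles and genotypes. The submitters' processing notes name build mm10 and the tools featureCounts 1.5.0, STAR 2.4.2a, DESeq, DESeq2 and Trimmomatic, without their roles. The deposited values are treated as a score: the spacing of low values shows whole reads per gene, scaled by the authors with one factor for each heart and rounded. From that spacing the value per read, and with it the depth, was estimated for each heart. The largest error of the value per read was 0.0001 on data simulated with the same scaling and rounding.

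Genes with a mean of at least 10 were fitted on log2(value + 1) with limma (version 3.58.1, under R 4.3.3), the variance following abundance, and p-values were adjusted over 15556 genes (Benjamini-Hochberg, threshold 0.05). Such fold changes understate those of low genes. On simulated data limma called 91 of 99 changes of 2-fold and 65 of 98 of 1.5-fold in this comparison, with 7 false calls among 15347 genes. The simulation gave every gene the same relative spread between hearts and held no sex or litter differences. The falls reported for members were smaller than both simulated sizes, and the share called at their size was not measured. Isoform ratios were tested by exact permutation. The alternatives were other pseudocounts, filters and scalings, no variance trend, a replicate block, embryo sex as a term, and leaving out each heart. The members and lists were chosen with earlier results of these data known. Per-heart values were named for members past the threshold, up to 6 per complex, for Cox isoform pairs and for the leading assembly factors; values of further genes were added after they had been seen. Pseudogenes were matched with BLAST 2.17.0. Replicates of a group differed by more than sampling noise.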

Additional observations from a re-analysis of the deposited data

How the results depend on the processing

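The count of 13 complex II to V genes lower in the knockouts was 8 with no filter on low values, 8 with equal totals, 8 with quantile normalization, 6 without a variance trend, 8 with embryo sex as a term, and 6 to 14 when each heart was left out in turn. It stayed within 1.5 times under the other pseudocounts and the stricter filter, and 0 genes rose under any setting. The median of -0.17 was -0.18 to -0.12 without each heart, -0.14 with equal totals and -0.12 with quantile normalization. The 7 genes of the assembly list that fell were 3 without a variance trend, 4 with sex as a term and 3 to 8 without each heart. The 1 that rose was joined by another with the replicate block (2) and without some hearts (1 to 2). The 3 isoform ratios kept their direction, at 0.30 to 0.46, -0.21 to -0.11 and 0.12 to 0.41 without each heart.

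Same-numbered controls and knockouts did not deviate together (correlations of -0.04, -0.37 and 0.05), and no heart correlated best with the heart of its own number. With the replicate number as a block, 15 members were lower, and 1743 genes fell and 1787 rose over all genes. Over all genes, 909 fell and 846 rose with no filter, 814 and 812 without a variance trend, 981 and 1109 with sex as a term, 1091 and 1570 with equal totals, and 1324 and 1307 with quantile normalization, where the members' count went from 13 to 8 without a like drop over all genes, beside 1331 and 1339 in the reported fit. Cox7a2, at 0.03, ran from -0.0026 (without control replicate 1) to 0.056 and Cox8a, at -0.07, from -0.20 to 0.0046 (without control replicate 2) when each heart was left out. The cause of these differences was not tested, and a fit without a heart also has fewer hearts. Cox4i2 and Cox6b2, the lowest members, had the largest SEs among the 46, at 0.17 and 0.23.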
